A study of Rattus norvegicus with 28 samples.

Results

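The genes described here encode the subunits of the mitochondrial oxidative phosphorylation machinery. They were chosen by symbol, as the probes whose single gene symbol starts with Nduf, Uqcr, Cox4 to Cox8 or Atp5, or is Sdha, Sdhb, Sdhc or Sdhd. The rule used no measured value, although it was set with earlier results of these data known. It found 69 probes, 1 for each of 69 genes, among 13337 genes that have a probe with 1 symbol on the array. Of these genes 30 belong to complex I, 4 to complex II, 4 to complex III, 11 to complex IV and 13 to complex V. The other 7 are Ndufaf genes, whose products help to assemble complex I and do not stay in it. The complex I genes include Ndufs6-ps1, listed as a pseudogene of Ndufs6, and Ndufa10l1, a close relative of Ndufa10, so their probes may also pick up RNA of the related gene, which was not tested.

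The electron transport chain sits in the inner mitochondrial membrane. Complex I takes electrons from NADH and complex II takes them from succinate, both pass them to ubiquinone, complex III passes them on to cytochrome c, and complex IV gives them to oxygen. Complexes I, III and IV pump protons, and complex V, the ATP synthase, lets the protons flow back and makes ATP. The members measured here are encoded in the nucleus, while a smaller set of subunits comes from mitochondrial DNA. Nuclear respiratory factor 1 (NRF1) and the ETS-family factor GABP are known regulators of many of these nuclear genes. Astrocytes express the whole chain but also rely heavily on glycolysis.

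The study measured RNA on Illumina rat bead arrays in C6 cells, a single rat glioma line that serves as a stand-in for astrocytes. All cells, untreated ones included, had been without serum for 24 h before treatment. The groups were desipramine, a tricyclic antidepressant (6 arrays), fluoxetine, a serotonin reuptake inhibitor (6 arrays), haloperidol, an antipsychotic (6 arrays), diazepam, a benzodiazepine (4 arrays, numbered 1, 4, 5 and 6), and untreated cells (6 arrays). Each drug was given at 25 µM for 2 h, no vehicle was named for the untreated cells, and the labels call the replicates biological. The arrays measure RNA of bulk cultures, in which fewer expressing cells and less RNA per cell cannot be told apart.

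Each array detected between 9839 and 10537 of 22523 probes, and between 62 and 65 of the 69 members. Correlations between arrays ran from 0.983 to 0.997 and no 2 arrays held identical values. Of 9 astrocyte marker genes 7 were detected on all 28 arrays (Aldoc, Gfap, Gja1, Nes, S100b, Slc1a3 and Vim), while Aqp4 was detected on none. The microglial genes Aif1, Ptprc and Tyrobp and the endothelial genes Cdh5, Tek and Vwf were detected on 0 arrays. Of 10 neuronal marker genes 5 were detected on all arrays, of 7 oligodendrocyte genes 2 and of 6 fibroblast genes 4.

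Promoter sequences from RefSeq (rat build GRCr8) were matched to 60 of the 69 members by gene identifier. The 9 others were Atp5pd, Cox6a1, Cox6c, Ndufa10l1, Ndufa8, Ndufaf6, Ndufb9, Ndufs6-ps1 and Uqcrb. The 250 bases before each start were searched on both strands for 4 motifs of factors known from respiratory genes. These were the NRF1 core (GCGCA, any base, then GCGC), the GABP/ETS core CCGGAAG, the YY1 core AAGATGGC and the estrogen-related receptor core TCAAGGTCA. The NRF1 core was found in 12 of 60 member promoters (20.0%), against 3.75% of all 33469 promoters in the table. The GABP/ETS core was found in 16 member promoters (26.7%), against 7.27% of all. The YY1 core stood in 2 (3.33%, against 1.63% of all) and the estrogen-related receptor core in 1 (1.67%, against 0.388% of all), and any of the 4 motifs in 28 (46.7%, against 12.1% of all). The median GC content was 57% in the member promoters and 51.2% in all promoters, and no share was corrected for this. A match is a run of letters and not a shown binding site.

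The promoters of the only members that passed the test over all 5 groups, Ndufs5 and Ndufa7, are shown because the results turn on these genes. The Ndufs5 window lies at chr5:141264403-141264652 on the minus strand and holds 1 NRF1 core, in capitals, whose first letter stands 129 bases before the start. The Ndufa7 window lies at chr7:15311196-15311445 on the plus strand and holds none of the 4 motifs, so it has no capitals.
Ndufs5: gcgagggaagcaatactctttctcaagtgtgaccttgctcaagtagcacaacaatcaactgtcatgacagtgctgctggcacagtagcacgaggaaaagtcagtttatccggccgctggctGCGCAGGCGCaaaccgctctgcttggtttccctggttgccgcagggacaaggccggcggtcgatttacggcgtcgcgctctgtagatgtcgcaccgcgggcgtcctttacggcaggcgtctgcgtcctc
Ndufa7: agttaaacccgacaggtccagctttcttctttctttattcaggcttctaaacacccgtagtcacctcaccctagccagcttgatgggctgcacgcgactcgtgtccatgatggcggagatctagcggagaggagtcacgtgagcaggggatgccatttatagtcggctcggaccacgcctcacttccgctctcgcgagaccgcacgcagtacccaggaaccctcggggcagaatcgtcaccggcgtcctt

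The 30-base windows around the NRF1 core of the other members that hold one are shown to let the matches be compared, with the first core in capitals and 5′ to 3′ along the gene's strand. They come from subunits of complexes I, II, III and V and from 2 assembly factors, and none from complex IV. The first match of each of the 12 promoters lies between 15 and 158 bases before the start, and Ndufa11 and Sdha hold the core at 2 positions, of which the second is not in capitals. In Ndufa11 it overlaps the first.
Atp5mc2: ggctctagtcGCGCATGCGCagagccttct
Atp5me: ttgcgctacgGCGCATGCGCtttcctggct
Atp5po: acgccgacgcGCGCATGCGCtctggcatca
Ndufa11: cctgcgctgtGCGCATGCGCatgcgcacag
Ndufa12: ctccagctctGCGCGTGCGCagagcgacct
Ndufa5: cgtatgagctGCGCAGGCGCaaatctctcc
Ndufaf4: gcagtagtccGCGCATGCGCccctgtggaa
Ndufaf5: gtcgtagtccctttgGCGCATGCGCacaat
Ndufv3: cagaatgcgcGCGCAAGCGCttggccccac
Sdha: cgtttgcagaGCGCAGGCGCaccaccactc
Uqcrc1: cttccttacaGCGCCTGCGCctcatactcc

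Most members were bright and steady in C6 cells. A probe was called detected when its detection p, which ranks it among the negative controls of its array, was under 0.05. Only probes detected on 4 or more of the 28 arrays entered the tests. These included 65 of the 69 members, 58 structural subunits and 7 assembly factors, and 60 were detected on all 28 arrays. Cox8b, the heart and muscle form of subunit 8, Cox8c, its testis form, and Ndufs4, an accessory subunit of complex I, were detected on 0 arrays, while the general form Cox8a was detected on all 28. Cox6a1, the general form of subunit 6a, was detected on all 28 arrays and the muscle form Cox6a2 on 13. Atp5mc3, one of 3 genes for the c subunit of the ATP synthase ring, was detected on 1 array, against all 28 for Atp5mc1 and Atp5mc2. Ndufs6-ps1 was detected on 7 arrays, Ndufaf2 on 26, and Ndufb4 and Atp5mk on 27 each. Within groups the members had a median SD of 0.12 log2 units, against 0.17 over all 11364 probes kept.

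Values are log2 intensities after background correction and quantile normalization, and differences between groups were tested with limma over all 11364 probes kept, two-sided, with Benjamini-Hochberg adjustment and a threshold of 0.05. A level can be compared between groups for 1 probe, but not between probes. Across all 5 groups an F-test called 2 of the 65 members (3.08%), against 16.1% of all probes kept. Both are accessory subunits of complex I: Ndufa7 (adjusted p = 0.0032) and Ndufs5 (adjusted p = 0.019). No assembly factor and no member of complexes II to V was called by this limma F-test at the adjusted threshold, and at an unadjusted p under 0.05 the assembly factor Ndufaf4 was added (3 members, 4.62%, against 28.7% of all probes).

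Against untreated cells only fluoxetine moved a member past the threshold: 1 of 65 was called, Ndufs5 (1.54% of the members, against 3.75% of all probes kept), and it was lower, as were 1.54% of all probes. Limma's unadjusted p of 0.05 was passed by 6 members, all lower (Atp5mk, Ndufa7, Ndufaf2, Ndufaf5, Ndufb8 and Ndufs5; 9.23%, against 15.7% of all probes). With desipramine 0 members were called, against 5.59% of all probes, and 2 members passed limma's unadjusted p of 0.05 (Ndufaf4 and Ndufb4, both higher; 17.8% of all probes passed it). With haloperidol 0 members were called, against 3.73% of all probes, and 3 passed the unadjusted p in limma (Ndufa7, Ndufaf1 and Ndufs5, all lower; 16.1% of all probes passed it). With diazepam 0 members were called, against 0.792% of all probes, and 0 passed the unadjusted p in limma, where 9.31% of all probes did. The plot of changes by complex shows these differences for each kept member.

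**Figure D1:**
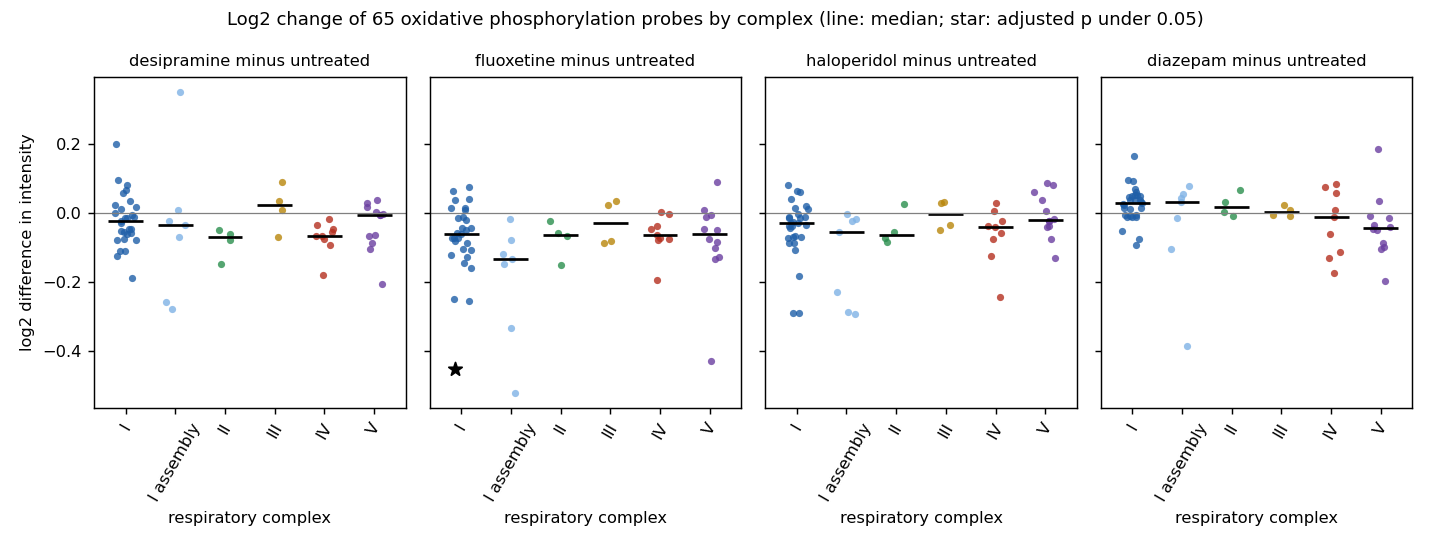
Log2 difference in intensity between each drug and untreated cells (vertical axis, log2 units) for 65 members grouped by respiratory complex (horizontal axis), with 1 panel per drug, the median of each complex as a line and a star for an adjusted p under 0.05 in limma. The only star is Ndufs5 in the fluoxetine panel at -0.45, and the widest haloperidol difference is -0.29 (Ndufaf1).

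Ndufs5 encodes a small accessory subunit on the intermembrane-space side of complex I. On the log2 scale its lowest, median and highest values were 10.71, 11.09 and 11.47 in fluoxetine cells, against 11.41, 11.61 and 11.74 in untreated cells. The groups overlapped: 4 of 6 fluoxetine arrays lay below the lowest untreated array, and all 6 lay below the untreated mean. The mean was 11.13 ± 0.28 in fluoxetine cells and 11.58 ± 0.13 in untreated cells (SD, n = 6 each), and in limma Ndufs5 fell by 0.45 ± 0.12 log2 units (SE, 95% interval -0.71 to -0.20, adjusted p = 0.034), which is 1.37-fold. Set against the untreated array of the same replicate number, fluoxetine was lower in 5 of 6 pairs, with differences between -1.03 and 0.0059.

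In the other groups the lowest, median and highest Ndufs5 values were 11.13, 11.38 and 11.70 with desipramine and 10.78, 11.36 and 11.56 with haloperidol. Diazepam arrays 1, 4, 5 and 6 had 11.58, 11.51, 11.72 and 11.89. All 4 diazepam values lay above every fluoxetine value, while desipramine and haloperidol values reached into both. Desipramine differed from untreated by -0.19 ± 0.12 (adjusted p = 0.48), haloperidol by -0.29 ± 0.12 (adjusted p = 0.23) and diazepam by 0.09 ± 0.14 (adjusted p = 0.92) in limma. The test between the drugs did not separate fluoxetine from haloperidol (-0.16 ± 0.12, adjusted p = 0.68) or desipramine from fluoxetine (0.26 ± 0.12, adjusted p = 0.22). The call with fluoxetine rested on single arrays: it was lost without untreated 1, 4 or 5 or without fluoxetine 1, 2, 4 or 6, with adjusted p over all 28 arrays left out in turn between 0.015 and 0.12 and changes between -0.52 and -0.37. It was also lost with no filter on dim probes (adjusted p = 0.067), on arrays numbered 1 to 4 alone (-0.53, adjusted p = 0.082) and on arrays 5 and 6 alone (-0.30, adjusted p = 0.82).

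Fluoxetine and untreated arrays of the same replicate number had positively correlated deviations from their group means, but weakly in some pairs (0.10 to 0.51). Pairs of different numbers were not compared. With the number as a block, limma called 3 members lower with fluoxetine (4.62%, against 7.58% of all probes): Ndufs5 (adjusted p = 0.013), Ndufaf2 (0.040) and Ndufb8 (0.047). Ndufb8, an accessory subunit of the membrane arm, had 11.09, 11.47 and 11.57 as lowest, median and highest values in fluoxetine cells and 11.42, 11.66 and 11.82 in untreated cells. It was lower than its same-number untreated array in 6 of 6 pairs, with differences between -0.55 and -0.0065, although the 2 groups overlapped. Other members, among them Ndufa11, Ndufs8 and Sdhc, were also lower with fluoxetine in 6 of 6 pairs, and the share over all probes was not computed. Without the block the difference of Ndufb8 was -0.25 ± 0.11 (adjusted p = 0.24 in limma). Ndufaf2, an assembly factor related to the subunit Ndufa12, had 5.19, 5.99 and 6.44 in fluoxetine cells and 5.96, 6.41 and 7.05 in untreated cells, a difference of -0.52 ± 0.23 (adjusted p = 0.24 in limma without the block). This was the widest fluoxetine difference among the 65 members, at 1.44-fold, and its interval was also among the widest.

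Ndufa7 encodes an accessory subunit of the arm of complex I that reaches into the matrix. The raw intensity of its probe was low, at 152.5 to 284 over the 28 arrays. Its lowest, median and highest log2 values were 7.06, 7.29 and 7.60 with desipramine, 6.73, 6.98 and 7.18 with fluoxetine and 6.78, 6.93 and 7.04 with haloperidol, while diazepam arrays 1, 4, 5 and 6 had 7.33, 7.20, 7.22 and 7.34 and untreated arrays 7.04, 7.24 and 7.35. Fluoxetine and haloperidol arrays were the low ones: 5 of 6 in each group lay below the lowest untreated array. Against untreated cells neither passed the threshold in limma, at -0.26 ± 0.09 (adjusted p = 0.11) for fluoxetine and -0.29 ± 0.09 (adjusted p = 0.059) for haloperidol. Desipramine differed from untreated by 0.10 ± 0.09 (adjusted p = 0.65) and diazepam by 0.05 ± 0.10 (adjusted p = 0.94).

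**Figure D2:**
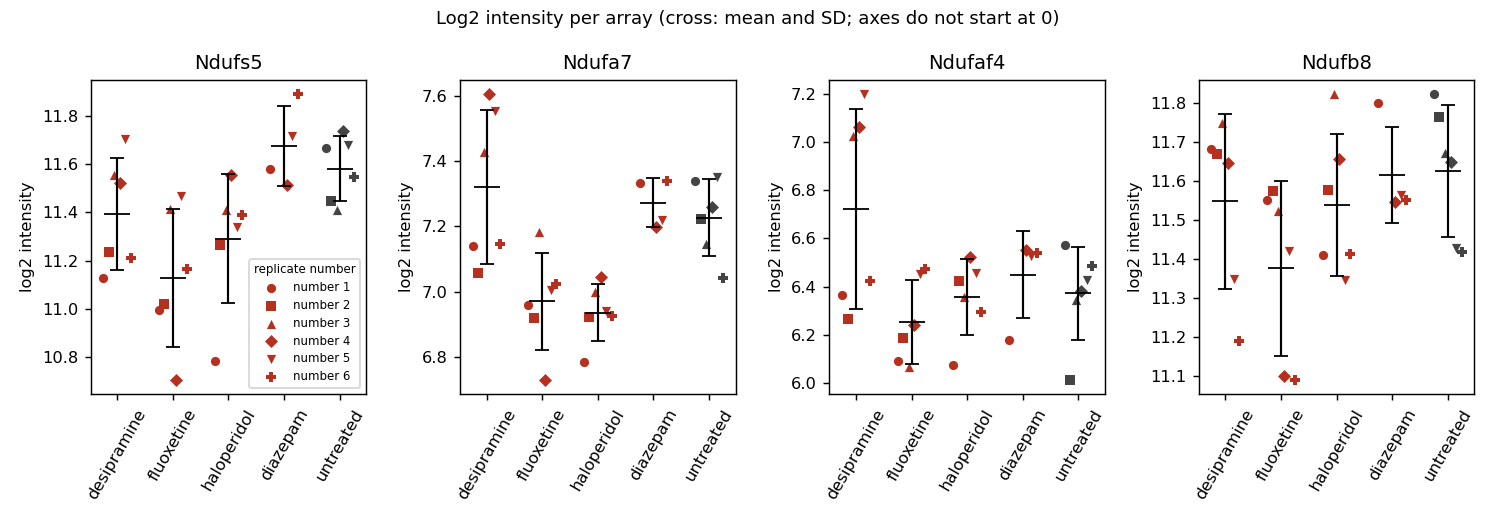
Log2 intensity (vertical axis, not starting at 0) of Ndufs5, Ndufa7, Ndufaf4 and Ndufb8 on each of 28 arrays, by group (horizontal axis), with the marker shape giving the replicate number and the cross the mean and SD. Ndufs5 is lowest with fluoxetine (mean 11.13), Ndufa7 is low with both fluoxetine and haloperidol, Ndufaf4 is high on 3 of 6 desipramine arrays, and Ndufb8 is low on arrays numbered 5 and 6 in desipramine and untreated cells.

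The drugs were also set against each other, in 6 comparisons of drug pairs. Any of them called 3 of 65 members (4.62%: Ndufa7, Ndufaf4 and Ndufs5), against 18.7% of all probes kept. Comparisons that share a drug share its arrays. Ndufa7 was higher with desipramine than with fluoxetine, by 0.35 ± 0.09 log2 units (adjusted p = 0.010 in limma), and higher with desipramine than with haloperidol, by 0.39 ± 0.09 (adjusted p = 0.0044 in limma). Both calls held without any 1 of the 28 arrays, with an adjusted p of at most 0.042 for the first and 0.019 for the second. Ndufs5 was lower with fluoxetine than with diazepam, at -0.55 ± 0.14 log2 units (adjusted p = 0.017 in limma), with no overlap, and this call was lost without fluoxetine 4, diazepam 5 or diazepam 6 (adjusted p up to 0.087).

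Ndufaf4, which encodes an assembly factor that works with Ndufaf3, separated desipramine from fluoxetine by 0.47 ± 0.13 log2 units (adjusted p = 0.025 in limma). Its lowest, median and highest values were 6.26, 6.72 and 7.20 with desipramine, 6.07, 6.21 and 6.47 with fluoxetine, 6.08, 6.39 and 6.52 with haloperidol and 6.01, 6.40 and 6.57 in untreated cells, and 6.18, 6.55, 6.53 and 6.54 on diazepam arrays 1, 4, 5 and 6. Within desipramine, arrays 3, 4 and 5 were high (7.03, 7.06 and 7.20) and arrays 1, 2 and 6 lay within the untreated range (6.36, 6.26 and 6.42). The call was lost without desipramine 3, 4 or 5 or fluoxetine 1 or 3 (adjusted p up to 0.089), and with no filter on dim probes (adjusted p = 0.055). Against untreated cells Ndufaf4 differed by 0.35 ± 0.13 with desipramine (adjusted p = 0.14 in limma), and passed the threshold at 0.042 when desipramine 2 was left out. All 4 of these drug-pair calls kept their direction but were lost with median scaling (adjusted p between 0.13 and 0.28), and also on arrays numbered 1 to 4 alone (0.054 to 0.23) and on arrays 5 and 6 alone (0.32 to 0.81).

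By drug pair, desipramine against fluoxetine called 2 members (8.29% of all probes) and desipramine against haloperidol 1 (8.26% of all probes). Fluoxetine against diazepam called 1 (4.78% of all probes). Fluoxetine against haloperidol (3.63% of all probes), desipramine against diazepam (8.09%) and haloperidol against diazepam (2.3%) each called 0, and limma's unadjusted p under 0.05 was met by 1 (13.7% of all probes), 0 (20.6%) and 3 members (15.2%) in these comparisons. Where the replicate numbers paired the arrays, the block raised desipramine against haloperidol to 3 members (Ndufa7 and Ndufaf4 higher, Atp5f1b lower with desipramine, against 12.8% of all probes). It raised fluoxetine against diazepam to 4 members, all lower with fluoxetine (Ndufs5, Ndufa11, Ndufb8 and Atp5mc1, against 8.87% of all probes).

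Complex I holds the largest set of members, 29 of 30 kept. Its median change was -0.02 with desipramine, -0.06 with fluoxetine, -0.03 with haloperidol and 0.03 with diazepam, and 1 member was called, Ndufs5. Among the conserved core subunits 6 were examined by name, without a call. For fluoxetine against untreated cells, Ndufv1, which binds NADH and FMN, differed by -0.09 ± 0.06, Ndufv2 and Ndufs1, iron-sulphur subunits of the same arm, by -0.07 ± 0.07 each, and Ndufs3 by -0.08 ± 0.08. Ndufs7 and Ndufs8, the iron-sulphur subunits next to the ubiquinone site, differed by -0.12 ± 0.11 and -0.13 ± 0.10 with fluoxetine (adjusted p of 0.65 and 0.61 in limma). For these 6 core genes the adjusted p over the 4 drugs against untreated was never below 0.41. The accessory subunit Ndufb4 was 0.20 ± 0.08 higher with desipramine than in untreated cells (adjusted p = 0.17) and Ndufa11 differed by -0.16 ± 0.08 with fluoxetine (adjusted p = 0.32), neither past the threshold in limma.

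The median change of the 7 assembly factors with fluoxetine was -0.13, from -0.52 for Ndufaf2 to -0.02 for Ndufaf3, and all 7 lay below 0, as they did with haloperidol (median -0.05), while 5 of 7 did with desipramine and 3 of 7 with diazepam. None was called against untreated. Ndufaf5, an enzyme that modifies the subunit Ndufs7, differed by -0.33 ± 0.15 with fluoxetine (adjusted p = 0.28), and Ndufaf1, a factor for the membrane arm, by -0.29 ± 0.11 with haloperidol (adjusted p = 0.15 in limma). Of 23 further assembly genes of all complexes on a list chosen beside the members, 1 rose and 1 fell with desipramine (Coa7, a cytochrome oxidase factor, 0.42 ± 0.10, and Atpaf2, an ATP synthase factor, -0.25 ± 0.06). Of that list 0 were called with fluoxetine, 2 fell with haloperidol (Coa4, -0.52 ± 0.09, and Ecsit, -0.37 ± 0.10) and 1 rose with diazepam (Sdhaf2, which helps to load the flavin onto Sdha, 0.34 ± 0.08). Ecsit is, like Ndufaf1, a part of a complex that assembles the membrane arm of complex I, and Coa4 is a complex IV factor. Among all probes 5.59% were called with desipramine, 3.75% with fluoxetine, 3.73% with haloperidol and 0.792% with diazepam. The difference of the list's counts from these shares was not tested, and the list was chosen with earlier results of these data known.

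Complex II had no call. The flavoprotein Sdha had lowest, median and highest values of 10.12, 10.38 and 10.57 with fluoxetine and 10.19, 10.52 and 10.81 in untreated cells, which overlap, and a difference of -0.15 ± 0.10 (adjusted p = 0.54 in limma). The iron-sulphur subunit Sdhb differed by -0.06 ± 0.07 and the membrane anchors Sdhc and Sdhd by -0.07 ± 0.06 and -0.02 ± 0.08 with fluoxetine. All 4 lay below 0 with desipramine too (median -0.07).

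Complex III had median changes of 0.02, -0.03, -0.003 and 0.002 with desipramine, fluoxetine, haloperidol and diazepam. The Rieske iron-sulphur protein Uqcrfs1 had 12.46, 12.60 and 12.72 with fluoxetine and 12.47, 12.52 and 12.71 in untreated cells, and the core protein Uqcrc1 differed by -0.09 ± 0.07 with fluoxetine. Uqcrb, a ubiquinone-binding subunit, differed by 0.09 ± 0.07 with desipramine (adjusted p = 0.53 in limma), and the hinge protein Uqcrh by -0.08 ± 0.06 with fluoxetine.

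Complex IV had 9 of 11 members kept and no call. With desipramine all 9 lay below 0, from -0.18 for Cox6a2 to -0.02 for Cox7b (median -0.07), with fluoxetine 8 of 9 (median -0.06), with haloperidol 7 of 9 (median -0.04) and with diazepam 5 of 9 (median -0.01). Cox4i1, the general form of subunit 4, had 12.99, 13.17 and 13.33 with fluoxetine and 12.94, 13.18 and 13.25 in untreated cells, a difference of 0.004 ± 0.08. Cox6a1 varied least among the members detected on all arrays, with an SD of 0.06 log2 units over all 28 arrays. Cox7a2l, which links complexes III and IV into a supercomplex, differed by -0.12 ± 0.08 with haloperidol (adjusted p = 0.51 in limma).

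Complex V had 12 of 13 members kept and no call. Of the subunits of the ATP synthase head, Atp5f1a had 13.58, 13.68 and 13.77 with fluoxetine and 13.62, 13.65 and 13.74 in untreated cells, and Atp5f1b, which holds the catalytic sites, differed by -0.10 ± 0.06 with desipramine, -0.05 ± 0.06 with fluoxetine, 0.09 ± 0.06 with haloperidol and -0.04 ± 0.07 with diazepam. Desipramine was lower than the same-number untreated array for Atp5f1b in 6 of 6 pairs, with differences between -0.16 and -0.08, without a call (adjusted p = 0.42 in limma). The same held with desipramine for members of other complexes, among them Ndufs1, Ndufs8 and Sdha, and the share over all probes was not computed. Atp5mc1 of the c ring differed by 0.19 ± 0.10 with diazepam (adjusted p = 0.63), and Atp5mk, a small membrane subunit that was dim on this array, by -0.43 ± 0.20 with fluoxetine (adjusted p = 0.28). For diazepam 10 of 12 members of complex V lay below 0 (median -0.04), while 9 of 29 of complex I did (median 0.03), against 49.2% of all probes. The diazepam group has no arrays numbered 2 and 3, which the untreated mean includes. With the replicate number as a block the diazepam medians were -0.02 for complex V and 0.06 for complex I. The difference between the complexes was not tested.

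**Figure D3:**
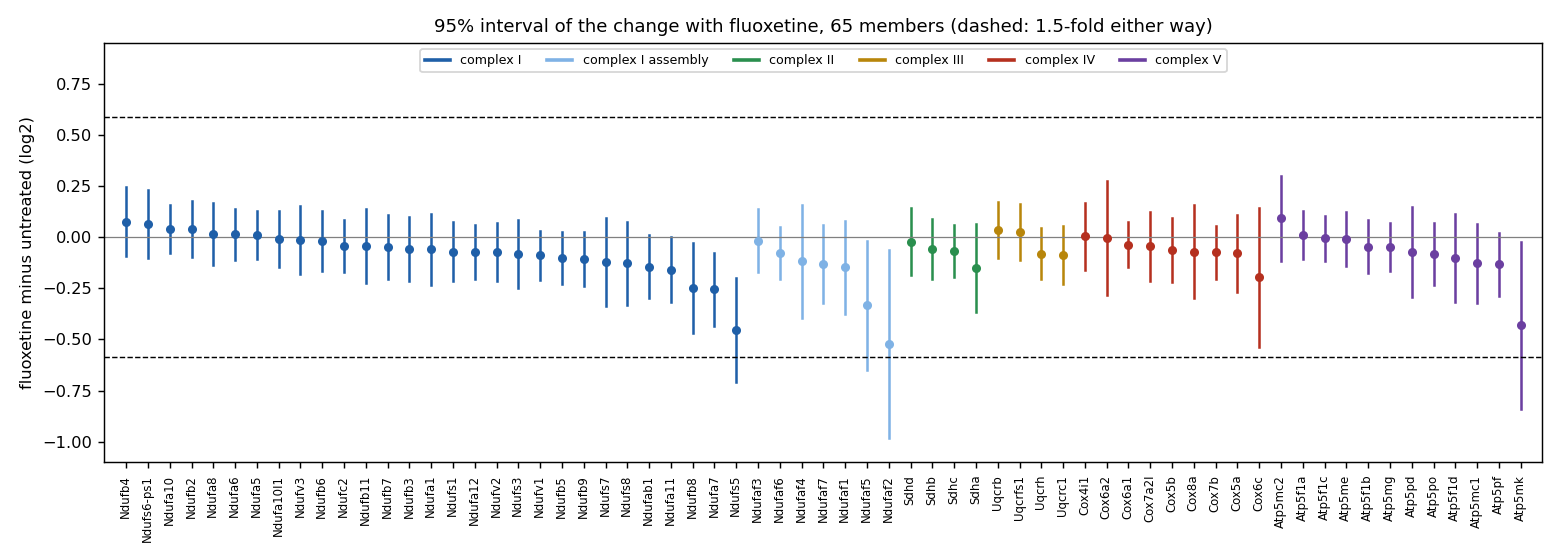
Log2 difference between fluoxetine and untreated cells (vertical axis, log2 units) with its 95% interval for 65 members (horizontal axis), grouped by complex and ordered by change, with dashed lines at 1.5-fold either way. The intervals of 61 members lie inside the dashed lines, and those of Ndufs5, Ndufaf5, Ndufaf2 and Atp5mk cross the lower one.

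The intervals set bounds on the changes. With desipramine the 95% interval of the change lay within 1.5-fold either way for 61 of 65 members (93.7% of all probes kept), with fluoxetine for 61 (94.1% of all), with haloperidol for 64 (94.5% of all) and with diazepam for 63 (94.3% of all). All 65 lay within 2-fold for each drug, as did 99.4% of all probes with desipramine, 99.3% with fluoxetine, 99.7% with haloperidol and 99.8% with diazepam. For haloperidol and diazepam the share of members, 98.5% and 96.9%, was slightly above that of all probes, and for desipramine and fluoxetine, 93.8% each, it was close to it.

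Small differences below 0 made up a larger share of the members than of all probes with 3 of the drugs, a difference in shares that was not tested. Of 65 members 47 lay below 0 with desipramine (72.3%, against 52.2% of all probes), 53 with fluoxetine (81.5%, against 50.3%), 48 with haloperidol (73.8%, against 50.7%) and 30 with diazepam (46.2%, against 49.2%). The median member change was -0.04 with desipramine (-0.007 over all probes), -0.07 with fluoxetine (-0.001), -0.03 with haloperidol (-0.002) and 0.01 with diazepam (0.003). These medians are smaller than the median SE of 1 member (0.08), which does not measure the spread of a median over members. Over the arrays of a group, the median member deviation from the untreated mean had an SD of 0.04 with desipramine, 0.07 with fluoxetine and 0.08 with haloperidol. That SD was 0.04 with diazepam and 0.02 in untreated cells. The comparisons share the untreated arrays, and members on 1 array are not independent. Median scaling also moved the median of all probes: the members' median was then -0.16 with desipramine (all probes -0.09), -0.16 with fluoxetine (-0.03), -0.11 with haloperidol (-0.02) and -0.15 with diazepam (-0.12). In the authors' normalized values the diazepam median was -0.002 (all probes -0.006).

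Markers of cell type moved in the same arrays, and their part in the member differences was not tested. Of 8 kept astrocyte probes limma called 1, Vim, an intermediate filament gene, which fell with fluoxetine by 0.35 ± 0.10. The normalized intensities of all 9 astrocyte probes summed to between 23000 and 25530 with desipramine, 24790 and 28610 with fluoxetine, 24150 and 27360 with haloperidol, 24330 and 26220 with diazepam and 25680 and 27780 in untreated cells, so that every desipramine array lay below the untreated range. Of 8 kept neuronal probes, the neurofilament gene Nefl fell by 0.58 ± 0.08 with fluoxetine, 0.40 ± 0.08 with haloperidol and 0.41 ± 0.09 with diazepam, and Gad1 (-0.38 ± 0.10) and Nefm (-0.29 ± 0.08) fell with haloperidol. All 10 neuronal probes summed to between 1817 and 2102 with desipramine, 1518 and 1732 with fluoxetine, 1618 and 1734 with haloperidol, 1433 and 1826 with diazepam and 1961 and 2213 in untreated cells. The fluoxetine, haloperidol and diazepam arrays thus all lay below the untreated range. Such a sum gives most weight to probes of high intensity, and the untreated mean was 10.34 for Nefl, against 7.69 for Gad1. The median change of the 8 kept neuronal probes was -0.01 with fluoxetine, -0.02 with haloperidol and -0.08 with diazepam. Of all probes 5.59% were called with desipramine, 3.75% with fluoxetine, 3.73% with haloperidol and 0.792% with diazepam. Of 4 kept oligodendrocyte probes, Olig1 fell with desipramine by 0.69 ± 0.14, and the sums of all 7 overlapped between each drug and untreated cells.

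Taken array by array, the median over members of the deviation from the untreated mean ran from -0.10 to 0.004 with desipramine, from -0.17 to 0.009 with fluoxetine, from -0.14 to 0.06 with haloperidol, from -0.03 to 0.07 with diazepam and from -0.02 to 0.04 in untreated cells. Fluoxetine arrays 4 and 6 (-0.13 and -0.17) and haloperidol array 1 (-0.14) were the lowest, and fluoxetine arrays 1, 2 and 3 (-0.02, 0.01 and -0.02) lay within or next to the untreated range. On those low arrays 54, 56 and 55 of 65 members lay below their untreated means. The median difference from the same-number untreated array was below 0 on 6 of 6 fluoxetine arrays and 4 of 6 desipramine arrays. For fluoxetine those medians ran from -0.14 to -0.03.

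**Figure D4:**
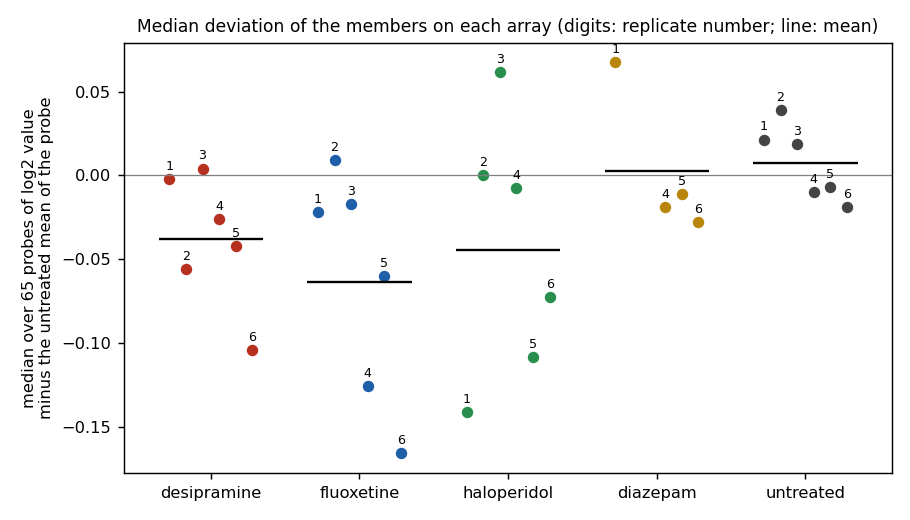
Median over 65 members of the log2 value minus the probe's untreated mean (vertical axis, log2 units) for each of 28 arrays, by group (horizontal axis), with the replicate number beside each point and the mean of each group as a line. Untreated arrays lie between -0.02 and 0.04, and fluoxetine 4 and 6 and haloperidol 1 lie at or below -0.13.

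Members differed by replicate number, as did many other probes. In a limma fit with group and number, an F-test for number called 24 of 65 members (36.9%), against 29.9% of all probes kept. By complex it called 6 of 29 members in complex I, 3 of 7 assembly factors, 2 of 4 in complex II, 2 of 4 in complex III, 6 of 9 in complex IV and 5 of 12 in complex V. The labels do not say what the number stands for beyond a biological replicate. Of the 24 called members 16 (66.7%) were below their mean over numbers at both 5 and 6, and 8 were above it at both, while 44.4% of all called probes were below at both. Differences in these shares between members, complexes and all probes were not tested.

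Cox6c, a small accessory subunit of cytochrome oxidase, had the smallest p for number (adjusted p = 2.991e-06 in limma). Its lowest, median and highest values were 6.43, 6.69 and 6.77 on the 10 arrays numbered 5 and 6 and 5.83, 6.22 and 6.60 on the 18 arrays numbered 1 to 4. Atp5f1d, the delta subunit of the ATP synthase, went the other way, with 11.52, 11.69 and 11.87 on arrays 5 and 6 and 11.81, 11.99 and 12.16 on arrays 1 to 4 (adjusted p = 4.77e-05 in limma). Sdha (10.07, 10.20 and 10.48, against 10.36, 10.53 and 10.81) and Ndufs8 (10.97, 11.15 and 11.33, against 11.05, 11.37 and 11.61) were also low on arrays 5 and 6, as was Atp5pd, a subunit of the stalk that holds the head in place. Sdhd was higher on arrays 5 and 6 without overlap, at 11.41 to 11.53, against 11.03 to 11.35 on arrays 1 to 4. Subunits of 1 complex thus moved in both directions, as Sdha and Sdhd did.

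**Figure D5:**
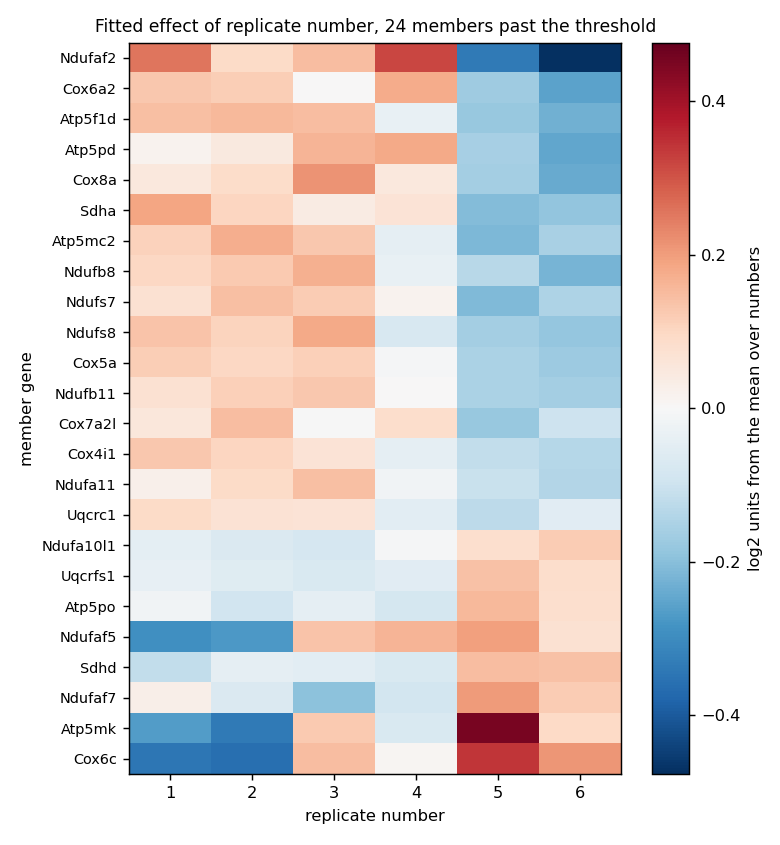
Fitted effect of the replicate number (colour, log2 units from the mean over numbers) for the 24 members called for number (vertical axis) at numbers 1 to 6 (horizontal axis), ordered by their values at 5 and 6. The upper 16 members are low at both 5 and 6 and the lower 8 are high at both.

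Genes around the chain were read from lists chosen beside the members, with earlier results of these data known. Of 12 kept probes of the tricarboxylic acid cycle, which feeds the chain with NADH and succinate, limma called 0 with any drug. Of 19 probes for electron carriers and exchange, 1 was called, Coq7 of ubiquinone synthesis, which fell with fluoxetine by 0.40 ± 0.11 (adjusted p = 0.039). With fluoxetine 3.75% of all probes were called. Of 56 probes for the mitochondrial ribosome, which makes the subunits encoded in mitochondrial DNA, 5 fell and 0 rose with fluoxetine, where 1.54% of all probes fell and 2.21% rose, a difference that was not tested. They were Mrpl49 (-0.42 ± 0.07), Mrpl41 (-0.53 ± 0.14), Mrps17 (-0.28 ± 0.07), Mrps12 (-0.22 ± 0.06) and Mrpl34 (-0.26 ± 0.07). The median change of these 56 with fluoxetine was -0.04, and only Mrps18b passed with another drug, rising with desipramine by 0.31 ± 0.09 (adjusted p = 0.026).

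Of 17 kept probes for regulators of mitochondrial genes, 2 rose and 0 fell with desipramine, fluoxetine and haloperidol each, while 0 rose and 1 fell with diazepam. Of all probes 3.37% rose with desipramine, 2.21% with fluoxetine and 2.28% with haloperidol, and 0.414% fell with diazepam, and the difference from these shares was not tested. This list too was chosen with earlier results of these data known, so its counts are not independent of them. Pprc1, a coactivator of NRF1, rose by 0.67 ± 0.08 log2 units with desipramine, 0.34 ± 0.08 with fluoxetine and 0.54 ± 0.08 with haloperidol (adjusted p = 5.485e-06, 0.015 and 0.00016 in limma). Nrf1 itself rose with haloperidol by 0.42 ± 0.10 (adjusted p = 0.010). Myc, a growth-linked transcription factor that also acts on nuclear genes for mitochondria, rose by 0.73 ± 0.08 with desipramine and 0.74 ± 0.08 with fluoxetine and fell by 0.47 ± 0.09 with diazepam.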

How the data were processed

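RNA of 28 C6 cultures was measured on Illumina bead arrays read with GenomeStudio 1.9.0, per the submitters' processing notes. The authors deposited a linear intensity per probe and array that was not scaled between arrays, and whether background had been subtracted is not stated. The deposited table also gives a detection p-value per probe and array. The authors' normalized intensity values, whose method is not given in the sources used here, served only as an alternative, and 4 columns with no sample in the series were not used. The number of arrays limits the precision of each value.

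Intensities were background-corrected and quantile-normalized with neqc of limma 3.58.1 in R 4.3.3, in which the detection p stood in for the negative controls and the offset was 16, which pulls fold changes of dim probes toward 1. A probe entered the tests if 4 or more of the 28 arrays gave it a detection p under 0.05 (11364 of 22523 probes). One mean per group was fitted over all 28 arrays, with no block, and tests were two-sided with Benjamini-Hochberg adjustment over all probes kept. The fitting code was tested on simulated data. Probes were named by the platform annotation (13793 with 1 symbol, 8730 with none), and updating through RefSeq changed 0 symbols. Positions of the probes are not used here.

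The members and lists were chosen with earlier results of these data known. The text names members past the threshold, the 4 per complex with the smallest F p, isoform and catalytic core genes and the 4 with the smallest p for replicate number, and up to 3 genes of each other list. Other members and list genes given with counts were chosen after their values were seen. Replicate numbers in the labels were taken as pairing arrays where every same-number correlation of deviations from the group means was over 0.1. This held for desipramine with untreated (0.22 to 0.47), fluoxetine with untreated (0.10 to 0.51), desipramine with fluoxetine (0.14 to 0.46), desipramine with haloperidol (0.29 to 0.42) and fluoxetine with diazepam (0.26 to 0.51), not for haloperidol with untreated (-0.005 to 0.42) or diazepam with untreated (0.04 to 0.36). The alternatives were a replicate block, other scalings, filters and background corrections, array weights, subsets of arrays or members and leaving out each array.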

Additional observations from a re-analysis of the deposited data

Results flagged for a closer look

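In 6 of 190 sets of values (3.16%; in each of the 5 groups, the values of each named member that was kept and the array medians over all members) a single array stood apart from the rest of its group, each time as the lowest, by Dixon's criterion at the 95% level. Chance alone flags about 5 in 100 sets when the sets are independent. These sets share the same arrays, and members on 1 array are not independent, so the count found cannot be judged against that share. Whether the flagged values go beyond chance was not tested. Atp5mc1 had 11.93 on untreated array 1, against 12.25 on the next lowest array. Cox7a2l had 11.59 on haloperidol array 5, against 11.79 on the next. Ndufaf4 had 6.18 on diazepam array 1, against 6.53 on the next. Ndufs3 had 10.77 on desipramine array 6, against 10.92 on the next. Ndufs5 had 10.78 on haloperidol array 1, against 11.27 on the next. Sdhb had 11.78 on diazepam array 6, against 12.06 on the next. Of these 6 arrays 3 are numbered 1. The low Ndufs5 value enters the haloperidol mean of that gene, and haloperidol array 1 is also the lowest haloperidol array in the median over all members (-0.14).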

How the results depend on the processing

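With the replicate number as a block, members called were 3 with fluoxetine, 1 with haloperidol (Ndufa7, adjusted p = 0.038 in limma; 7.46% of all probes), 5 over the 5 groups (26.2% of all probes) and 9 between drugs (29.6% of all), and 0 with desipramine (9.72% of all) and diazepam (1.51% of all) as without it. With median scaling the member medians were -0.16 with desipramine (all probes -0.09), -0.16 with fluoxetine (-0.03) and -0.15 with diazepam (-0.12), and 1 member was called over the 5 groups and 0 between drugs. Fluoxetine called 0 with no filter on dim probes, haloperidol 1 of the 60 members detected on all arrays, and desipramine 1 with array weights (Ndufaf4, adjusted p = 0.049). On arrays numbered 1 to 4 alone, and on arrays 5 and 6 alone, 0 members were called with fluoxetine, over the 5 groups or between drugs. These subsets hold fewer arrays per group and the share of all probes called in them is not given, so 0 calls cannot be read as absent differences. Ndufa7, for desipramine against haloperidol, differed by 0.37 on arrays 1 to 4 and 0.42 on arrays 5 and 6, against 0.39 on all arrays. Without 1 array in turn, calls ran from 0 to 1 with desipramine, fluoxetine and haloperidol each, were 0 with diazepam, and ran from 2 to 3 over the 5 groups, 2 to 4 between drugs and 22 to 26 for number. The medians ran from -0.047 to -0.026 with desipramine, -0.080 to -0.045 with fluoxetine, -0.052 to -0.014 with haloperidol and 3e-04 to 0.016 with diazepam. Haloperidol's 1 call came without untreated 6 or desipramine 2, 4 or 5 (Ndufa7). Of 6047 values of named members under alternatives 66 moved without a call, 31 lost a call, 9 gained one and 0 called values changed sign. The other 5941 kept their call or, where there was none, moved by less than the SD within groups. Only values called in the main fit could lose a call, and these were few, so the 31 are not to be read as a share of all 6047. The cause of these moves was not tested. Each gene rests on 1 probe, dim probes (Cox6a2, Ndufs6-ps1, Ndufaf2, Atp5mk) have wide intervals, and RNA after 2 h says nothing of protein or respiration. Raw intensities were also low for Ndufa7 (152.5 to 284), Ndufaf4 (114.1 to 195.7), Cox6c (118.9 to 181) and Ndufb4 (85.6 to 134.4). The raw median per array ran from 80.8 to 108.2. Nrf1 and Coq7 were dim too, with untreated means of 5.33 and 5.85 log2 units.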
